A study of Mus musculus with 12 samples.

Results

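The genes described here encode metabotropic glutamate receptors (Grm2, Grm3, Grm4, Grm5, Grm7 and Grm8) and the Homer scaffold proteins (Homer1, Homer2 and Homer3). They were chosen by name, and each was read from the array feature that the platform annotation assigns to that gene symbol alone. Of the 9 named genes, 8 had such a feature, 1 each, among 30142 genes on the array. The feature that lists Grm8 also lists the microRNA gene Mir592, so no level is given for Grm8.

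Expression was measured on Affymetrix whole-transcriptome arrays in 4 laser-captured pieces of mouse hippocampus, with 3 arrays each: the CA2 dendritic layer (stratum radiatum), the CA2 cell body layer (stratum pyramidale), the CA1 dendritic layer and the CA1 cell body layer. All tissue came from 3 male mice, 6 to 8 weeks old and from separate litters, that carried the Amigo2-EGFP reporter on a C57BL/6J background, so every group shares the transgene, whose reporter is driven by Amigo2, and none received a treatment. Each piece pools sections captured on about 20 caps, and 5 to 7 ng of RNA was amplified. Each layer piece is a mixture: the dendritic layer holds dendrites and axons together with interneurons, glia and vessels, and in such bulk tissue fewer cells of a type and less RNA per cell cannot be told apart. Values are log2 expression as the authors normalized it, on which a difference of 1 is a 2-fold difference, and group values are means ± SD of 3 arrays.

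Metabotropic glutamate receptors are G protein-coupled receptors for the main excitatory transmitter of the brain. Group I receptors such as mGluR5 (Grm5) couple to Gq and phospholipase C and sit mostly around the postsynaptic density, while group II (Grm2, Grm3) and group III receptors (Grm4, Grm7, Grm8) couple to Gi/o, lower cyclic AMP and often act on presynaptic terminals. Grm3 is also a receptor of astrocytes. Homer proteins bind group I receptors through an EVH1 domain and, as coiled-coil multimers, link them to inositol trisphosphate receptors, ryanodine receptors and Shank scaffolds. A short, activity-induced Homer1 product, Homer1a, lacks the coiled coil and uncouples these links. The array feature of Homer1 was not split by isoform here, so its value does not separate Homer1a from the long forms.

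The labelled tissue was checked against marker genes. All 9 markers of CA2 pyramidal cells were higher in the CA2 than in the CA1 cell body layer, and 4 of 6 CA1 markers were lower there. Among the 9 is Amigo2 (2.83), the gene that also drives the reporter of these mice. Gene values of array pairs within a group correlated at 0.99 to 0.997, and the median SD of a gene was 0.129 in the CA1 dendritic layer, against 0.072 to 0.093 in the other groups. Oocyte transcripts, which no layer of the hippocampus should hold, stood apart on 3 arrays. The median of 17 such genes was 7.34 on CA2 dendritic array 2, 7.23 on CA2 dendritic array 3 and 7.17 on CA2 cell body array 1, against 5.46 to 5.77 on the other 9 arrays. Values without these 3 oocyte-positive arrays are given beside each member's call that is lost without them; that fit keeps 1 CA2 dendritic array, which is assumed to vary like the other groups. The layer calls of Grm5, Grm7, Homer1, Grm3 and Homer2 held without them in both regions.

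The members fell into 3 patterns across the layers. In both CA2 and CA1, the dendritic layer had less Grm5, Grm7 and Homer1 and more Grm3 and Homer2 than the cell body layer, and Grm2, Grm4 and Homer3 differed by less than 0.4 between layers in either region. In CA2, 6 of 8 members were called at an adjusted p under 0.05, 2 higher and 4 lower, against 35.2% of all genes (16.7% up and 18.6% down). In CA1, 6 of 8 were called, 3 higher and 3 lower, against 49.0% of all genes (30.1% up and 18.9% down). The median difference of the members was -0.24 in CA2 and 0.15 in CA1, against -0.03 and 0.12 over all genes. With so many genes called in each comparison, the count of members says less than the sizes: Grm3 differed more than 99.9% of genes in CA2 and 98.6% in CA1, and Grm7 more than 98.9% and 98.3%.

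**Figure D1:**
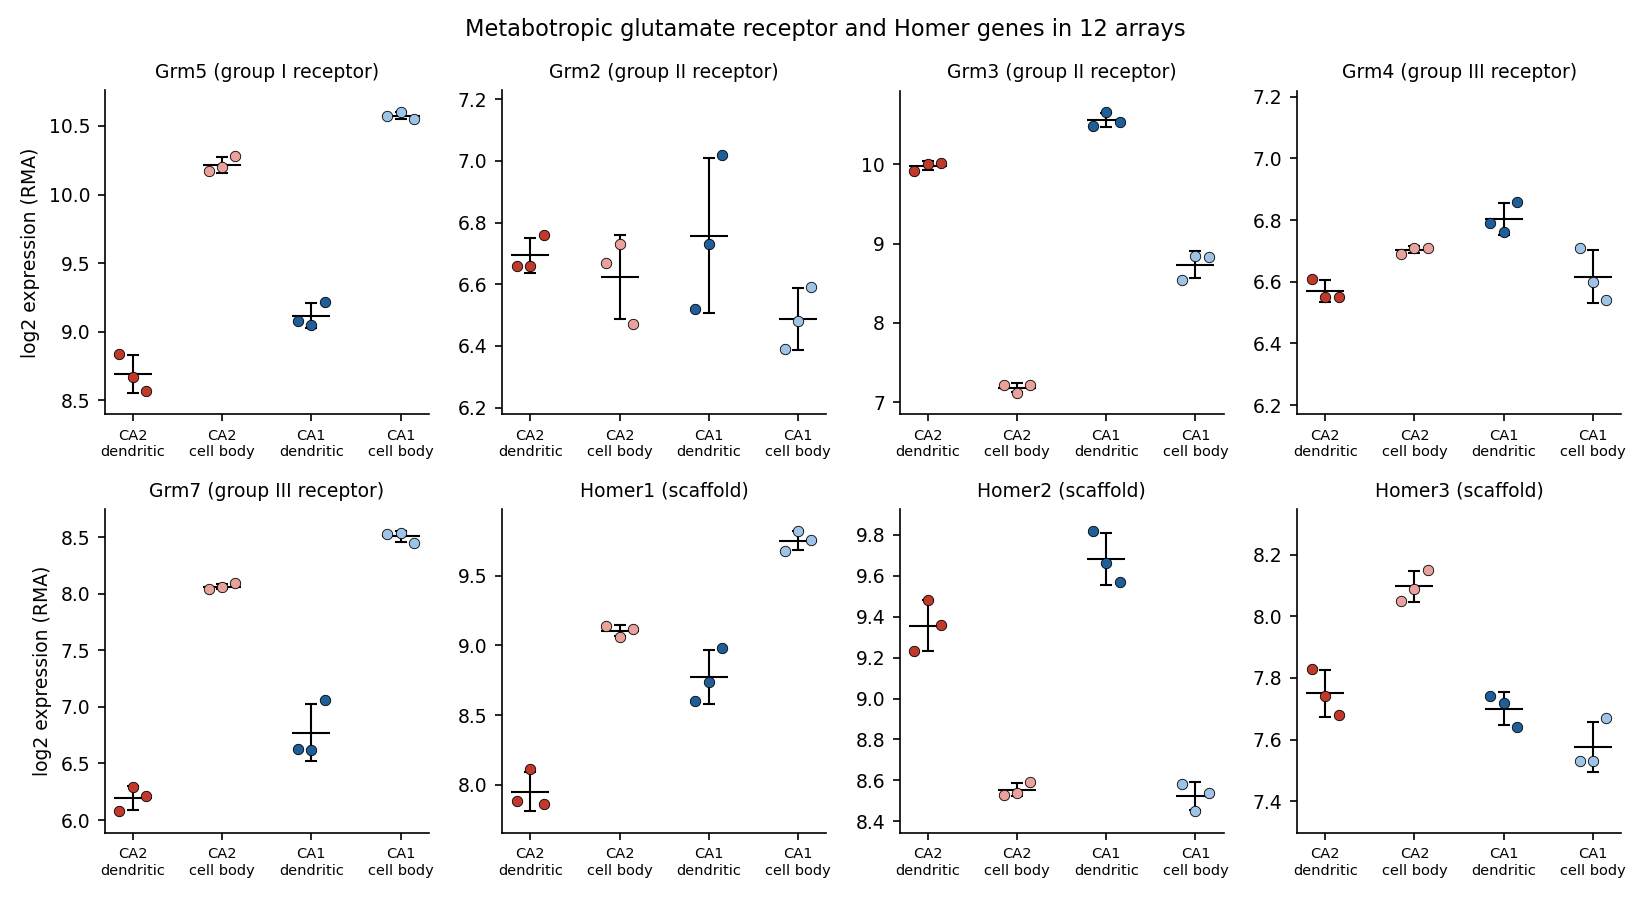
Log2 expression of 8 genes on 12 arrays, 1 panel per gene; points are arrays, the horizontal line is the group mean and the bars are ± SD (n = 3). Grm5, Grm7 and Homer1 stand highest in the cell body layers and Grm3 and Homer2 in the dendritic layers, while Grm2 varies within groups by as much as between them; each panel has its own axis.

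Promoter sequences of the members that moved together are shown because these genes formed the clear layer patterns. The sequences are from RefSeq (GRCm38.p6), on the strand of the gene, and run from 250 bases before to 50 bases after an annotated transcript start. Of the 9 named genes, 7 had at least 1 such window. Grm4 and Grm5 had none, so Grm5, which moved with Grm7 and Homer1, has no sequence here. Some genes have several starts, of which the most upstream one is printed. Capitals mark GGGCGG or its complement CCGCCC (the GC box, a site of Sp1-type factors) and TGACG or CGTCA, which is the core of the cyclic AMP response element. The first pair, lower in the dendritic layer, is Homer1 (chr13:93303507-93303806, plus strand) and Grm7 (chr6:110645262-110645561, plus strand).
Homer1: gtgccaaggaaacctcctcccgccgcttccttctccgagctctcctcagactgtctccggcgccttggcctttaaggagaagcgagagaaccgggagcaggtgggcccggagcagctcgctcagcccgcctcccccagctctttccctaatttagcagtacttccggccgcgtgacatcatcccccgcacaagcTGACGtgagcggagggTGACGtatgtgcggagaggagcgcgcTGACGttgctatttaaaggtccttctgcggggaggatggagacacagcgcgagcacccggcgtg
Grm7: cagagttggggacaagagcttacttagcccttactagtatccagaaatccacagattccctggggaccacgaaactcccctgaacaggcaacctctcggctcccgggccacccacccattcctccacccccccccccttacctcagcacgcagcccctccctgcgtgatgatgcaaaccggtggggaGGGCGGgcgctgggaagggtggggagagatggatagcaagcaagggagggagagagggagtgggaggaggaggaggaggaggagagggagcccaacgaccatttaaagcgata
The second pair, higher in the dendritic layer, is Grm3 (chr5:9725303-9725602, minus strand) and Homer2 (chr7:81706876-81707175, minus strand).
Grm3: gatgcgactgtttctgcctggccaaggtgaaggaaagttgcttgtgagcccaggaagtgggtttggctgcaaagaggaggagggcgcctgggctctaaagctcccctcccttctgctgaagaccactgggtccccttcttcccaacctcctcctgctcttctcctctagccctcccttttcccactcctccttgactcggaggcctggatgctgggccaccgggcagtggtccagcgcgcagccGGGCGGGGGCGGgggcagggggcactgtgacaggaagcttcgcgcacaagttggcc
Homer2: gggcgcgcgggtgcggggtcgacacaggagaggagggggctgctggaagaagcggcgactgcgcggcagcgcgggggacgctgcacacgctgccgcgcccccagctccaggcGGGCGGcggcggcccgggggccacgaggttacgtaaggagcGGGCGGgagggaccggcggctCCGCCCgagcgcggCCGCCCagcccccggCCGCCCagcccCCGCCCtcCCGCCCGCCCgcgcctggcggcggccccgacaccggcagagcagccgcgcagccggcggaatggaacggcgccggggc
The Homer1 window held 3 copies of TGACG, whose first bases lie at -56, -40 and -14 from the start, and no GC box. At least 1 copy of TGACG on either strand was found in 20.8% of the 300-base windows of all genes, and none of the other 3 printed windows had one. The full palindrome TGACGTCA was in 0 of the 12 windows of the named genes and in 1.8% of all windows. GC boxes on either strand were found 8 times in the printed Homer2 window, 2 times in Grm3 and 1 time in Grm7, and 35.7% of all windows held at least 1. The TATA sequence TATAAA (or TTTATA) was in none of the 4 printed windows and in 13.6% of all windows. The G and C content was 82.3% in Homer2, above that of 99.6% of all windows, and 63.7%, 63.0% and 61.0% in Grm3, Homer1 and Grm7, against a median of 52.7% over all windows. The other start of Homer2 (chr7:81692916-81693215) had no GC box, 1 TATAAA match at -170 and a G and C content of 52.3%, and the other start of Homer1 (chr13:93307784-93308083) had no TGACG and 44.7%. The other start of Grm7 (chr6:110645348-110645647), whose window overlaps the printed one, had 1 GC box and 66.7%. The matches therefore describe a window, not the gene as a whole. TGACG is contained in TGACGTCA, and these matches are a description of the letters, not evidence of binding.

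Grm5, the group I receptor of the set, was lower in dendritic than in cell body tissue of each region. It read 8.84, 8.67 and 8.57 on the CA2 dendritic arrays, against 10.17, 10.20 and 10.28 on the CA2 cell body arrays. It read 9.08, 9.05 and 9.22 on the CA1 dendritic arrays, against 10.57, 10.60 and 10.55 on the CA1 cell body arrays. The 4 groups did not overlap and ran, from high to low, CA1 cell body, CA2 cell body, CA1 dendritic and CA2 dendritic. The dendritic layer was 2.87-fold lower in CA2 (95% interval 2.56 to 3.23; difference -1.52, SE 0.08, limma adjusted p = 1.3e-08) and 2.74-fold lower in CA1 (2.45 to 3.08; difference -1.46, SE 0.08, adjusted p = 2.2e-08). The 2 layer differences were 0.07 apart, with a 95% interval of -0.30 to 0.17 for CA2 minus CA1 (difference -0.07, adjusted p = 0.68). That value was 0.057 (adjusted p = 0.818) once the 3 oocyte-positive arrays were left out.

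Grm7, a group III receptor known from the active zone of glutamatergic terminals, showed the largest fall of the set. Its values were 6.08, 6.29 and 6.21 on the CA2 dendritic arrays, against 8.04, 8.06 and 8.09 on the CA2 cell body arrays. In CA1 they were 6.63, 6.62 and 7.06 on the dendritic arrays, against 8.53, 8.54 and 8.45 on the cell body arrays. No dendritic array reached a cell body array, and CA1 dendritic array 3 lay above the other two of its group. The fall was 3.66-fold in CA2 (3.12 to 4.28; difference -1.87, SE 0.10, adjusted p = 3.5e-08) and 3.33-fold in CA1 (2.84 to 3.91; difference -1.74, SE 0.10, adjusted p = 7.4e-08). The difference between these was -0.13 (95% interval -0.46 to 0.19, adjusted p = 0.54) and 0.012 without CA1 dendritic array 3. The dendritic levels of Grm7 in both regions cannot be told apart from background, as described below with Grm2 and Grm4. The size of each fall, and of the difference between the falls, is therefore uncertain.

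Homer1, the scaffold with the activity-induced short form, fell with these receptors but by less. It read 7.88, 8.11 and 7.86 on the CA2 dendritic arrays, against 9.14, 9.06 and 9.12 on the CA2 cell body arrays. On the CA1 dendritic arrays it read 8.60, 8.74 and 8.98, against 9.68, 9.82 and 9.76 on the CA1 cell body arrays. The 4 groups kept the order seen for Grm5 and Grm7 without overlap. The dendritic layer was 2.23-fold lower in CA2 (1.93 to 2.58; difference -1.16, SE 0.10, adjusted p = 1.1e-06) and 1.97-fold lower in CA1 (1.70 to 2.28; difference -0.98, SE 0.10, adjusted p = 4.6e-06). The regions' layer differences were -0.18 apart (95% interval -0.48 to 0.12, adjusted p = 0.38). That value ran between -0.263 and -0.073 when single arrays were left out, with -0.073 without CA1 dendritic array 3, and was -0.35 after quantile normalization; it was called in none of the 20 alternatives (adjusted p 0.064 to 0.66). Over the 12 arrays, which fall into 4 groups and so share their layer and region, Grm5 correlated with Grm7 at r = 0.99 and with Homer1 at r = 0.93, and Grm7 with Homer1 at r = 0.94, given as descriptions. Of 8 general pyramidal neuron markers, 7 fell and 1 rose in the dendritic layer of CA2 (median -0.93), and 4 fell and 2 rose in that of CA1 (median -0.22). The part of these cells in the falls of Grm5, Grm7 and Homer1 was not tested.

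Grm3, a group II receptor known from astrocytes and from some neurons, had the largest layer difference of the set. It stood at 9.92, 10.01 and 10.02 on the CA2 dendritic arrays, against 7.22, 7.12 and 7.21 on the CA2 cell body arrays. It stood at 10.49, 10.66 and 10.54 on the CA1 dendritic arrays, against 8.54, 8.84 and 8.83 on the CA1 cell body arrays. The groups did not overlap and ran CA1 dendritic, CA2 dendritic, CA1 cell body and CA2 cell body from high to low, so that the CA2 cell body layer was set apart at the low end. The dendritic layer was 6.96-fold higher in CA2 (6.13 to 7.91; difference 2.80, SE 0.08, adjusted p = 4.1e-10) and 3.55-fold higher in CA1 (3.12 to 4.03; difference 1.83, SE 0.08, adjusted p = 8.3e-09). The rise was 0.97 larger in CA2 than in CA1 (95% interval 0.71 to 1.23, adjusted p = 0.00032), and 0.93 larger once the oocyte-positive arrays were left out (adjusted p = 0.0214, and 0.00011 to 0.021 over the 20 alternatives tried).

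Markers of astrocytes moved with Grm3 between layers. All 12 astrocyte markers were higher in the dendritic layer of CA2 (median 1.95) and of CA1 (median 1.98). Their mean level was 9.68 to 9.78 on the CA2 dendritic arrays and 7.88 to 7.92 on the CA2 cell body arrays, and 9.57 to 9.62 on the CA1 dendritic arrays and 7.68 to 7.69 on the CA1 cell body arrays. The lowest of them was Gja1, at 5.57 in the CA2 cell body layer and 5.55 in the CA1 cell body layer; log2 array values have no zero, so none can be called absent. The regions' difference of their layer differences had a median of -0.07 for CA2 minus CA1, and 1 of the 12, Fgfr3, passed the test of that difference (-0.36, adjusted p = 0.035). The part of these cells in the layer difference of Grm3 was not tested. Microglial (10 of 10), endothelial (9 of 9), oligodendrocyte (8 of 8) and precursor markers (6 of 6) were also higher on the dendritic side in CA2 and in CA1.

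**Figure D2:**
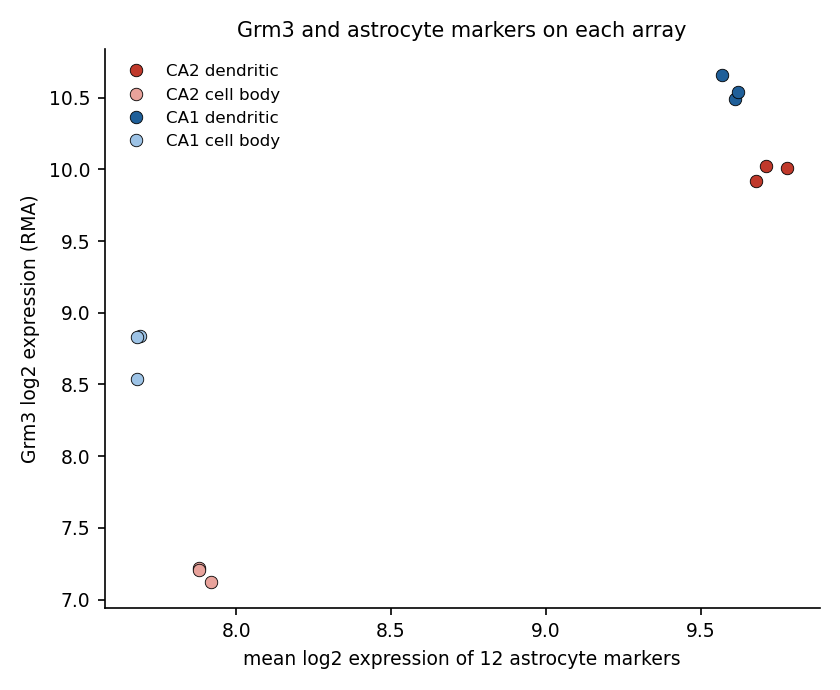
Log2 expression of Grm3 against the mean log2 expression of 12 astrocyte markers, 1 point per array, coloured by group. The CA2 cell body arrays have the lowest Grm3 (7.12 to 7.22) at a marker mean of 7.88 to 7.92, while the CA1 cell body arrays reach 8.54 to 8.84 at 7.68 to 7.69.

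Homer2 ran against Homer1, a scaffold of the same family and overall plan. It read 9.23, 9.48 and 9.36 on the CA2 dendritic arrays, against 8.53, 8.54 and 8.59 on the CA2 cell body arrays. It read 9.82, 9.66 and 9.57 on the CA1 dendritic arrays, against 8.58, 8.45 and 8.54 on the CA1 cell body arrays. The dendritic arrays of each region were all above its cell body arrays, and the cell body layers of the regions overlapped. The dendritic layer was 1.75-fold higher in CA2 (1.54 to 1.97; difference 0.80, SE 0.08, adjusted p = 5.4e-06) and 2.23-fold higher in CA1 (1.98 to 2.52; difference 1.16, SE 0.08, adjusted p = 2.4e-07). The rise was 0.36 smaller in CA2 (difference -0.36, 95% interval -0.61 to -0.11), which did not pass the test (adjusted p = 0.056, and 0.026 to 0.12 over 20 alternatives). It passed in 6 of them, among which were the fits without CA1 dendritic array 3 (-0.41, adjusted p = 0.0259) and without CA2 dendritic array 2 (-0.42, adjusted p = 0.0394). Of 10 interneuron markers, 7 rose in the dendritic layer of CA2, and 8 rose and 1 fell in that of CA1. All measured astrocyte (12), microglial (10), endothelial (9), oligodendrocyte (8) and precursor (6) markers also rose in both regions. Of 8 pyramidal neuron markers, 1 rose and 7 fell in CA2, and 2 rose and 4 fell in CA1. The part of any of these cells in the Homer2 difference was not tested.

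Homer3 was lower in the dendritic layer in CA2 and not called in CA1. It read 7.83, 7.74 and 7.68 on the CA2 dendritic arrays, against 8.05, 8.09 and 8.15 on the CA2 cell body arrays. On the CA1 dendritic arrays it read 7.74, 7.72 and 7.64, against 7.53, 7.53 and 7.67 on the CA1 cell body arrays. The CA2 cell body arrays were the 3 highest of the 12, and the CA1 layers overlapped. The difference was -0.35 in CA2 (SE 0.07, adjusted p = 0.001) and 0.12 in CA1 (SE 0.07, 95% interval -0.02 to 0.27, adjusted p = 0.14). The test of the difference between the regions' layer differences, below called the regions' difference, gave -0.47 (SE 0.09, adjusted p = 0.0066). Leaving out the oocyte-positive arrays gave a CA2 value of -0.29 (adjusted p = 0.0821, and 0.00035 to 0.082 over 21 alternatives) and the regions' difference was -0.41 (adjusted p = 0.11, and 0.0032 to 0.11 over 20 alternatives), so neither call held without those arrays. All 9 CA2 pyramidal markers also fell in the CA2 dendritic layer, with a median of -1.99, and their part in the Homer3 difference was not tested.

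Grm2 and Grm4 varied little, at a low level. Array medians were 5.68 to 5.88. Oocyte transcripts, which the hippocampus should not hold, averaged up to 6.49 in the CA1 cell body layer (Zar1) and 7.14 in the CA1 dendritic layer (Nlrp5). Nlrp5 was itself called higher in the dendritic layer of CA1 (0.93, adjusted p = 0.022) and of CA2 (1.24, adjusted p = 0.0054), so it is an uncertain mark of background. Without detection calls, values at the level of these oocyte transcripts cannot be told apart from background. That holds for Grm2 and Grm4, and for Grm7 in the dendritic layers of CA2 (mean 6.19) and of CA1 (mean 6.77). Grm2, a group II receptor best known in the hippocampus from dentate granule cells, lay between 6.66 and 6.76 on the CA2 dendritic arrays, between 6.47 and 6.73 on the CA2 cell body arrays, between 6.52 and 7.02 on the CA1 dendritic arrays and between 6.39 and 6.59 on the CA1 cell body arrays. Its layers overlapped in each region, with differences of 0.07 in CA2 (95% interval -0.18 to 0.32, adjusted p = 0.71) and 0.27 in CA1 (0.02 to 0.52, adjusted p = 0.067). Single arrays decided the CA1 value: it was 0.39 without CA1 dendritic array 1, which passed (adjusted p = 0.011), and 0.14 without CA1 dendritic array 3, which did not (adjusted p 0.011 to 0.24 over 21 alternatives).

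Grm4, a group III receptor most abundant in cerebellar granule cells, lay between 6.55 and 6.61 on the CA2 dendritic arrays and between 6.69 and 6.71 on the CA2 cell body arrays. It lay between 6.76 and 6.86 on the CA1 dendritic arrays, against 6.54 to 6.71 on the CA1 cell body arrays, so each region's layers were separate but close. Of the 8 members, 7 had layers without overlap in CA2 and 6 in CA1, where 47.3% and 55.1% of all genes did. The Grm4 difference was -0.13 in CA2 (SE 0.06, adjusted p = 0.12) and 0.19 in CA1 (SE 0.06, adjusted p = 0.023), and the regions' difference was -0.32 (SE 0.09, adjusted p = 0.028). The CA1 call was lost in 7 of 21 alternatives (adjusted p 0.013 to 0.12). It was lost with the oocyte-positive arrays left out (0.19, adjusted p = 0.0547), after quantile normalization (0.14, adjusted p = 0.114) or median centring (0.14, adjusted p = 0.116), with these groups alone (0.19, adjusted p = 0.085), and without CA1 dendritic array 3 (0.16), CA1 cell body array 2 (0.18) or CA1 cell body array 3 (0.15). The call on the regions' difference was lost in 10 of 20 (adjusted p 0.018 to 0.24), among them the fit with the replicate number as a block (-0.32, adjusted p = 0.0505). It was also lost without CA1 cell body array 2 (-0.31) or 3 (-0.28), CA2 dendritic array 2 (-0.31) or 3 (-0.31), or CA2 cell body array 1 (-0.33), 2 (-0.32) or 3 (-0.32), and with the oocyte-positive arrays left out (-0.29, adjusted p = 0.238).

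**Figure D3:**
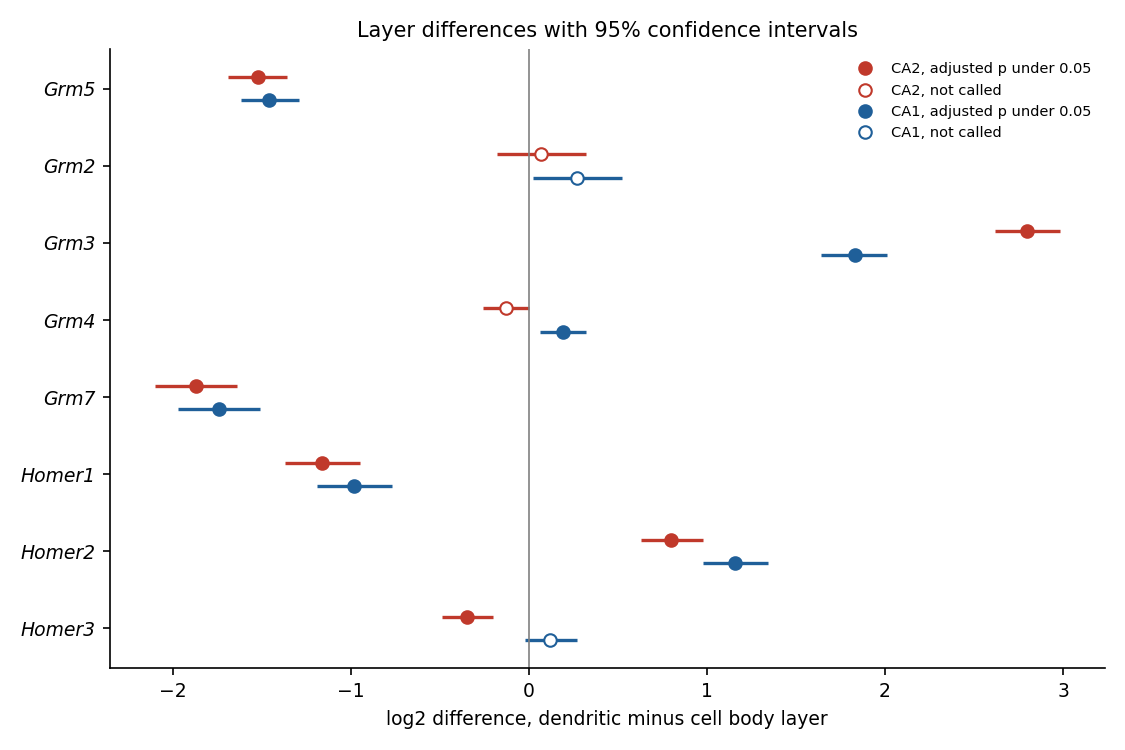
Layer differences (dendritic minus cell body, log2) of 8 genes in CA2 and CA1; points are limma estimates, bars are 95% confidence intervals and filled points have an adjusted p under 0.05. The Grm3 intervals of the regions do not overlap (2.62 to 2.98 in CA2, 1.64 to 2.01 in CA1). Those of Homer3 (-0.49 to -0.20 in CA2, -0.02 to 0.27 in CA1) and of Grm4 do not overlap either. Those of Grm5, Grm7 and Homer1 do.

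Across the members, the regions' layer differences were called apart in 3 of 8 genes, against 14.6% of all genes (5.64% with a higher value in CA2 and 8.91% with a lower one). Grm3 had the higher value in CA2, and Homer3 and Grm4 the lower one. With the oocyte-positive arrays left out, which leaves 1 CA2 dendritic array, the values were 0.93 for Grm3, -0.41 for Homer3 and -0.29 for Grm4. The calls of Homer3 and Grm4 were lost there, and fewer of all genes were called as well.

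The regions were then compared within each layer. All CA2 arrays carry one run number in the labels and all CA1 arrays another. Region and run therefore cannot be told apart, and no fit can have run as a term, whereas the layer comparisons lie within a run. In the cell body layer, 5 of 8 members were called, 1 higher and 4 lower in CA2, against 22.8% of all genes (11.6% up and 11.2% down). In the dendritic layer, 6 of 8 were called, all lower in CA2, against 33.6% of all genes (12.3% up and 21.3% down). These 5 and 6 members were also the ones whose arrays did not overlap between regions, as was so for 43.7% of all genes in the cell body layer and 41.0% in the dendritic layer. Markers of other cells moved in the dendritic layer as well, in both directions. Of 8 pyramidal neuron markers, 6 were lower in CA2 and none higher (median -0.41). Of 10 microglial markers, 9 were lower and none higher (median -0.45). Oligodendrocyte markers were higher in CA2 in 6 of 8 and lower in none (median 0.44). Endothelial markers were higher in 6 of 9 and lower in 1 (median 0.49), and interneuron markers higher in 5 of 10 and lower in 2 (median 0.37). In the cell body layer, 2 pyramidal neuron markers were higher and 1 lower (median 0.16), and 1 microglial marker was higher and 1 lower (median 0.15). There, 6 oligodendrocyte markers were higher and none lower (median 0.57), and 4 endothelial markers were higher and none lower (median 0.29). Of the interneuron markers, 2 were higher and 1 lower (median 0.20). The part of these cells in the members' region differences was not tested. The median over all genes was 0.02 in the cell body layer and -0.11 in the dendritic layer; median centring moved these to 0.117 and -0.002. The share of calls that were higher in CA2 depended on the scaling: in the cell body layer it was 50.9% as deposited, 71.3% after quantile normalization and 75.2% after median centring, and in the dendritic layer 36.5%, 55.3% and 69.2%.

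Grm3 differed most between the cell body layers. It was 2.93-fold lower in CA2 (2.58 to 3.33; 7.18 ± 0.06 in CA2 and 8.74 ± 0.17 in CA1, difference -1.55, SE 0.08, adjusted p = 1.1e-07), a larger difference than that of 99.3% of genes. In the dendritic layer it was 1.49-fold lower in CA2 (1.32 to 1.70; 9.98 ± 0.06 in CA2 and 10.56 ± 0.09 in CA1, adjusted p = 0.00042). Of the 12 astrocyte markers, 4 were higher and 1 lower in the CA2 cell body layer (median 0.19), and 3 were higher and 1 lower in the CA2 dendritic layer (median 0.10).

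Homer1, Grm7 and Grm5 were lower in CA2 in both layers. Homer1 averaged 9.11 ± 0.04 in the CA2 cell body layer and 9.75 ± 0.07 in that of CA1, and 7.95 ± 0.14 in the CA2 dendritic layer and 8.77 ± 0.19 in that of CA1. It was 1.57-fold lower in the CA2 cell bodies (1.35 to 1.81, adjusted p = 0.00043) and 1.77-fold lower in the CA2 dendritic layer (1.53 to 2.05, adjusted p = 0.0001). Grm7 differed by -0.44 in the cell body layer (adjusted p = 0.0087) and -0.58 in the dendritic layer (adjusted p = 0.0018). Its dendritic levels cannot be told apart from background, so the size of that dendritic difference is uncertain. Grm5 differed by -0.36 in the cell body layer (adjusted p = 0.0047) and -0.42 in the dendritic layer (adjusted p = 0.0017). The Grm5 call in the dendritic layer was lost once the oocyte-positive arrays were left out (-0.28, adjusted p = 0.114, and 0.00089 to 0.11 over 21 alternatives). Each of the 4 calls of Homer1 and Grm7 held in all 21 alternatives, with the weakest adjusted p, 0.0496, for Grm7 in the cell body layer when the oocyte-positive arrays were left out.

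Homer3 was the member that was higher in CA2, with its cell body layer called and its dendritic layer not. It averaged 8.10 ± 0.05 in the CA2 cell body layer and 7.58 ± 0.08 in that of CA1 (1.43-fold, 1.30 to 1.58, adjusted p = 0.00012), and 7.75 ± 0.08 in the CA2 dendritic layer and 7.70 ± 0.05 in that of CA1 (difference 0.05, 95% interval -0.09 to 0.19, adjusted p = 0.56). Homer2 showed the other arrangement, with a difference of 0.03 in the cell body layer (95% interval -0.15 to 0.21, adjusted p = 0.85) and -0.33 in the dendritic layer (SE 0.08, adjusted p = 0.01). Its dendritic call was lost after median centring (-0.22, adjusted p = 0.0819) and with these groups alone (-0.33, adjusted p = 0.0635), over a range of 0.0057 to 0.082 in 21 alternatives. Grm4 differed by -0.23 in the dendritic layer (adjusted p = 0.013), and by 0.09 in the cell body layer (adjusted p = 0.37). Its dendritic call was lost in 4 of 21 alternatives (adjusted p 0.0082 to 0.24): with the oocyte-positive arrays left out (-0.19, adjusted p = 0.242), after median centring (-0.12, adjusted p = 0.22) or quantile normalization (-0.17, adjusted p = 0.0794), and with these groups alone (-0.23, adjusted p = 0.0718). Grm2 differed by 0.14 in the cell body layer (adjusted p = 0.46) and by -0.06 in the dendritic layer (adjusted p = 0.68). The dendritic value turned to 0.045 after median centring and to 0.068 without CA1 dendritic array 3.

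**Figure D4:**
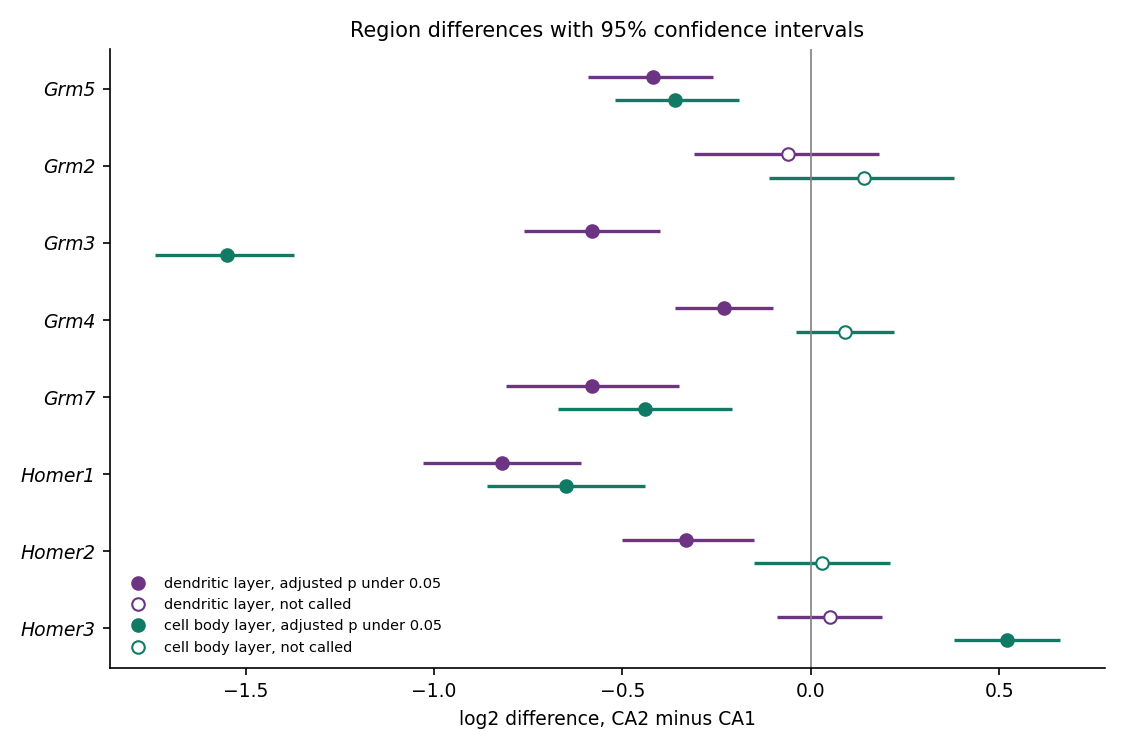
Region differences (CA2 minus CA1, log2) of 8 genes in the dendritic and the cell body layer; points are limma estimates, bars are 95% confidence intervals and filled points have an adjusted p under 0.05. Grm3 in the cell body layer (-1.55) lies farthest from 0, and Homer3 in the cell body layer (0.52) is the 1 filled point on the positive side.

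Genes of the pathways around these receptors were described from lists chosen by known function. Over all genes, 16.7% were called up and 18.6% down in the dendritic layer of CA2, and 30.1% up and 18.9% down in that of CA1. Of 10 measured genes of the Gq arm, 3 rose and 4 fell in CA2, and 5 rose and 4 fell in CA1. Their medians were 0.11 and 0.30, against -0.03 and 0.12 over all genes. The largest called differences were those of Itpr2, an inositol trisphosphate receptor known from astrocytes (1.66 in CA2 and 1.58 in CA1), of the protein kinase C gene Prkca (-1.41 in CA2) and of the phospholipase C gene Plcb3 (1.26 in CA1). Prkca also fell in CA1 (-0.81), and Plcb3 also rose in CA2 (0.95). Of 13 genes of the Gi/o arm, 4 rose and 6 fell in each region, to be read beside the same shares of all genes. Their medians were 0.09 in CA2 and -0.14 in CA1, against -0.03 and 0.12 over all genes. Kcnj3, a subunit of the G protein-gated potassium channel, fell in CA2 (-2.04) and in CA1 (-1.64). The adenylyl cyclase genes did not move as 1 group. Adcy9 fell in CA2 (-1.70) and in CA1 (-1.28), and Adcy5 rose in CA1 (1.44) and was not called in CA2 (0.28). Adcy8, named after its values were seen, rose in CA2 (0.74) and fell in CA1 (-1.11). The difference between its layer differences in the regions was 1.85 (SE 0.20, adjusted p = 0.00015).

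Binding partners of the receptors or of Homer also split by gene. Of 15 measured, 4 rose and 8 fell in the dendritic layer of CA2, against 16.7% up and 18.6% down over all genes. In that of CA1, 6 rose and 8 fell, against 30.1% up and 18.9% down. The medians were -0.31 in CA2 and -0.20 in CA1, against -0.03 and 0.12 over all genes. Shank1, the postsynaptic scaffold that Homer binds, rose in CA2 (1.67, adjusted p = 2.9e-09) and in CA1 (1.81, adjusted p = 1.8e-09). Ryr2, the intracellular calcium release channel that Homer can tether, fell in CA2 (-2.15, adjusted p = 4.4e-10) and in CA1 (-1.78, adjusted p = 1.7e-09). Elfn2, an adhesion protein that binds group III receptors across the synapse, was named after its values were seen. It fell in CA2 (-0.31) and rose in CA1 (0.44), and the difference between the regions' layer differences was -0.74 (SE 0.11, adjusted p = 0.00086).

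**Figure D5:**
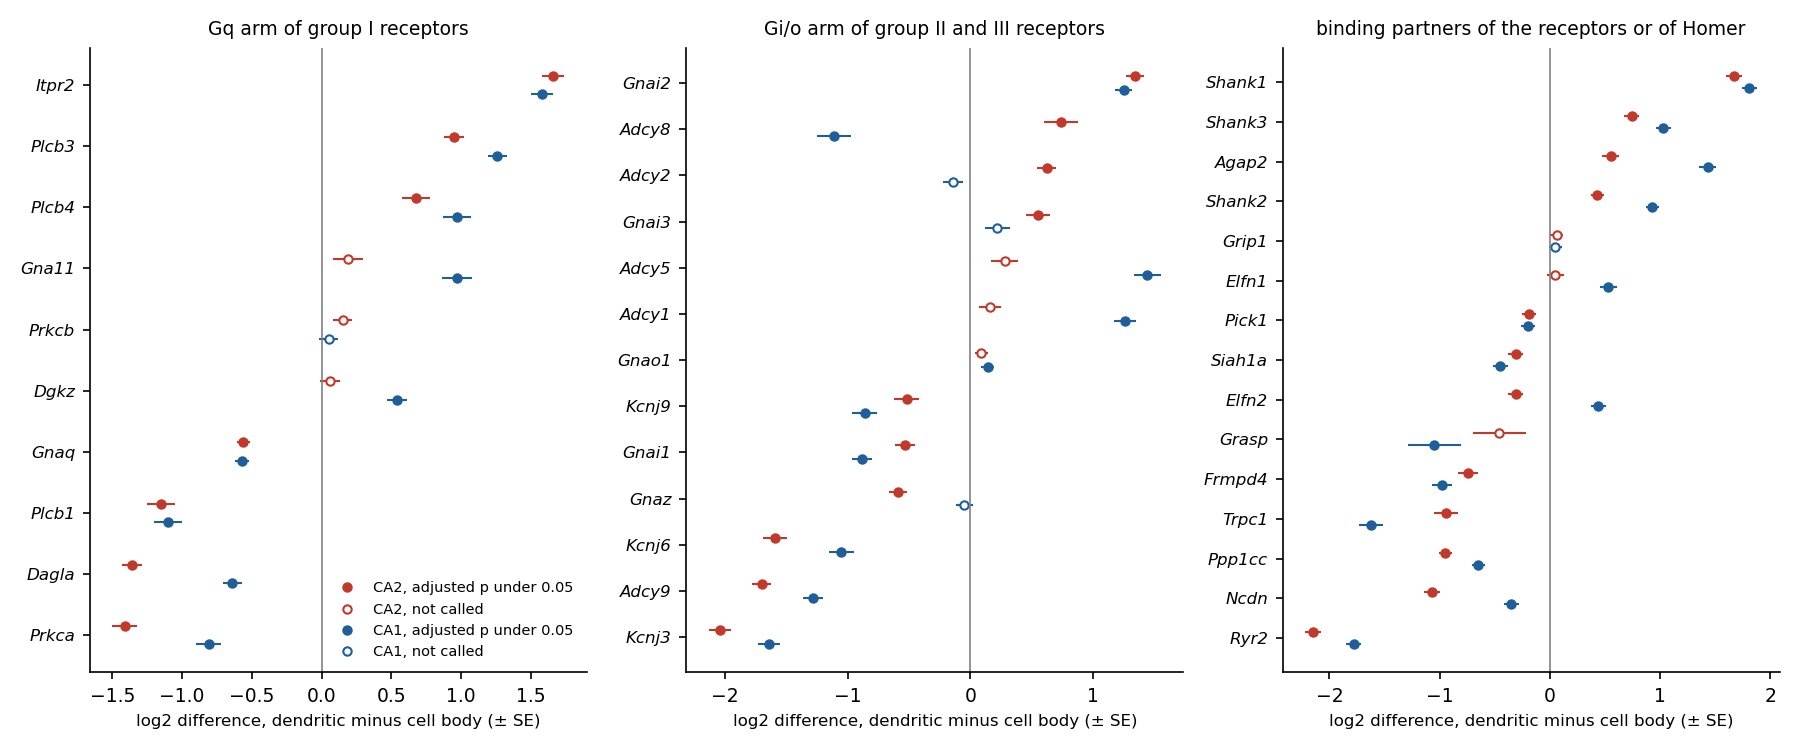
Layer differences (dendritic minus cell body, log2, ± SE) of 10 Gq arm, 13 Gi/o arm and 15 binding partner genes in CA2 and CA1, filled where the adjusted p is under 0.05. Shank1 (1.67 and 1.81) and Ryr2 (-2.15 and -1.78) stand at the opposite ends of the partner list in both regions.

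The genes most like each member were sought by Pearson r over the 12 arrays. The pool was 2802 genes with a level above the median feature and a span of at least 1 between group means. Predicted genes, numbered clones and small RNAs had been left out of it by name. Arrays of a group share layer, region and run, so r mainly reflects the 4 group means. For Grm5 the most alike were Cep19 (r = 0.998) and Skil (0.996), and for Grm7 Cep19 (0.996) and the NMDA receptor gene Grin2b (0.993). For Homer1 they were Arpp21 (0.994) and Sez6l (0.990), and for Homer2 Brsk1 (0.993) and Iqsec3 (0.992). Those of Grm3 were the ribosomal protein pseudogenes Rpl31-ps8 (0.991) and Rpl31-ps12 (0.990), whose features can share sequence with the parent gene and with each other and are uncertain. Grm2, Grm4 and Homer3 had spans of 0.27, 0.23 and 0.52 between their group means and were left out of this search.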

How the data were processed

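RNA from 12 laser-captured samples was amplified and hybridized, and the deposited values are log2 expression values per feature, made by the authors with RMA, as the labels' list of tools gives it. Which program ran it, and whether the CA1 and CA2 runs were normalized jointly, is not given in the sources used here. RMA sets probe intensities of the arrays it treats together to one distribution, so a difference is relative to the rest of the array. Array medians were 5.68 to 5.88, and no detection calls or read depths come with arrays, so the number of arrays limits the precision. Of 72688 features, 30604 had 1 gene symbol and 2146 several; 22818 were matched to RefSeq, 827 symbols changed, and the brightest feature per symbol was kept, leaving 30142 genes.

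Groups were compared with limma 3.58.1 in R 4.3.3 (4 group means, all 12 arrays, two-sided, Benjamini-Hochberg over all genes, called at an adjusted p under 0.05), tested on simulated data first. The replicate number was not used as a block: no label says that it stands for the mouse. P-values measure the spread between arrays. Alternatives were the replicate block, the 2 groups alone, quantile normalization, median centring, a level filter, an intensity trend, array weights, every feature, each array left out, and the arrays with oocyte transcripts left out. Every member was named; the 2 largest called genes per pathway list and layer comparison and the 2 genes most like each member followed fixed rules, with exceptions stated. Promoter windows came from RefSeq's table for GRCm38.p6. The members and lists were chosen with earlier results of these data known.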

Additional observations from a re-analysis of the deposited data

Results flagged for a closer look

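For 3 members the layer difference (dendritic minus cell body) differed between CA2 and CA1 by the test of that difference. Grm3 differed by 0.97, Homer3 by -0.47 and Grm4 by -0.32. The Grm3 call held in all 20 alternatives. The Homer3 call was lost in 1 of 20, the fit without the oocyte-positive arrays, and the Grm4 call in 10 of 20. The layer difference was 2.80 in CA2 and 1.83 in CA1 for Grm3, -0.35 in CA2 and 0.12 in CA1 for Homer3, and -0.13 in CA2 and 0.19 in CA1 for Grm4. No group of 3 arrays was tested for single outlying arrays.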

How the results depend on the processing

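Of the 40 differences (8 genes in 5 comparisons), 25 kept their direction and their side of the threshold in all the alternatives run for them; over all 832 values, 792 did. Without the arrays with oocyte transcripts the genes called numbered 7068 for the layers of CA2 (10625 with all arrays), 1303 for the difference between the regions' layer differences (4387; members called 1 instead of 3) and 3083 for the dendritic layers of the regions (10138); fewer samples were tested there. The last count was 6267 with array weights and 4771 with the 2 groups alone, and the cause was not tested. Leaving out single arrays gave 2621 to 6991 genes for the difference between layer differences, with 6991 without CA1 dendritic array 3, 2621 without CA1 cell body array 2 and 2648 without CA2 cell body array 2. Small differences that were not called changed sign: Grm2 between dendritic layers (0.045 after median centring, 0.068 without CA1 dendritic array 3), the regions' difference of Grm5 (0.057 without the arrays with oocyte transcripts) and of Grm7 (0.012 without CA1 dendritic array 3), Homer2 between cell body layers (-0.007 without CA1 cell body array 2) and Grm2 between the layers of CA2 (-0.007 without CA2 cell body array 3). Leaving out single arrays gave ranges of -0.182 to 0.068, -0.208 to 0.012, -0.007 to 0.058 and -0.007 to 0.123 for the Grm2 value between dendritic layers, the Grm7 value, the Homer2 value and the Grm2 value between the layers of CA2. Of 18 pairs of same-numbered arrays, 1 had deviations correlated above 0.1 (range -0.346 to 0.132), and 4 of 12 arrays correlated best with their own number. The replicate block changed 1 call, that of Grm4 in the regions' difference (-0.32, adjusted p = 0.0505), and left 14122, 10251, 3504, 6367 and 9105 genes called for the layers of CA1, the layers of CA2, their difference, the cell body layers and the dendritic layers.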
